A study of Zea mays with 48 samples.

Results

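In maize endosperm of the cross between the inbred lines UH301 and UH005, 94 array probes met a rule for following the seed parent: the reciprocal hybrids differed in the same direction as their seed parents and by a good part of the difference between them. The members were chosen by their measured values in the 16 endosperm arrays of this cross. They had to differ between the inbreds in the same direction in every loop with a value, by a mean of at least 0.8 on the log2 scale. The difference between the reciprocal hybrids also had to reach at least 0.6 of the inbred difference. Of 3585 probes, 2226 had values in 3 or more loops and could be judged, and 94 of them (4.22%) met the rule. UH301 was the higher inbred for 86 members and UH005 for 8. All 4 loops gave values for 64 members, and 3 loops did so for the other 30.

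The series holds 48 arrays with 2 colours from 4 reciprocal hybrids, 301x005, 005x301, 301x250 and 250x301, and the selfed inbreds UH301, UH005 and UH250, the first-named line being taken as the seed parent by convention. Endosperm and embryos were isolated 6 days after pollination from glasshouse plants whose ears were selfed and crossed on 1 day per set. Each loop of 4 arrays set both reciprocal hybrids against both inbreds, and each tissue had 4 loops of cross 301/005 and 2 of cross 301/250. The number of ears or kernels behind a sample is not given, so p-values measure the spread between these loops. That spread was estimated for each probe over both crosses and tissues together. For members it includes the 301/005 endosperm loops that the rule used. Every value below is a log2 ratio of hybrid over inbred or a difference of such ratios. The labels do not state the direction or the log base of the deposited ratios. Were the direction the other way, every sign would turn, while the ratio of the reciprocal to the inbred difference, and so membership, would stay the same.

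Endosperm is the nutritive tissue of the maize kernel and arises from its own fertilisation, in which 2 genome copies come from the seed parent and 1 from the pollen parent. The embryo beside it receives 1 copy from each. Seed-parent effects in endosperm are known from this dosage and from imprinted genes, which are read mainly from the copies of one parent. FIE1 and FIE2, relatives of a Polycomb group gene of Arabidopsis, NRP1 and MEG1, a gene of the basal transfer layer, are known examples of imprinted maize endosperm genes. None of their probes was a member. The P_FIE2 probe had an inbred difference of 0.36 and a reciprocal difference of -0.53 over 3 loops, and the probes of FIE1, NRP1 and MEG1 had values in too few loops to be judged. Of the transfer layer genes, the S_MRP probe was judged and was no member. No member carried a gene name in the files, and markers of starchy endosperm, aleurone, embryo and nucellus could not be matched to named probes, so the tissue labels were not checked against markers.

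The members shared a place in the probe naming that the rule did not use. Probe IDs made of 2 letters and a number, 1883 of the 3585, begin with a letter from A to U, and 78 of the 94 members had IDs beginning with J, K, N, O or R. These were 13 probes on J, 14 on K, 14 on N, 14 on O and 23 on R, and UH301 was the higher inbred for each of them. On these 5 letters 21.4% of the 364 judged probes were members, against 1.24% of the 886 judged probes on the other 16 letters. Among probes with the prefix S_ the share was 0.574% of 697, and with the prefix P_ 0.369% of 271. The files do not say what the letters stand for, and the letters were picked out after the members were known.

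**Figure D1:**
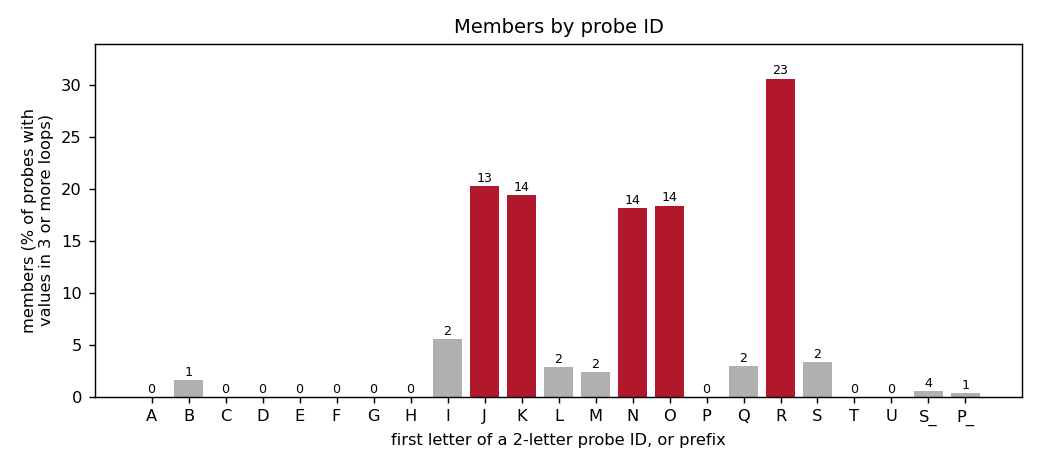
Percent of judged probes that were members (vertical axis), by the first letter of a 2-letter ID or by the prefix S_ or P_ (horizontal axis), with the number of members above each bar. The bars of J, K, N, O and R stand at 18.2% to 30.7%, and the tallest other bar, I, at 5.56%.

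The place in the naming also went with the inbred difference, and probes of lower ratio shared it less often than members. The 5 letters were taken as those with the most members higher in UH301. The comparison therefore favours members by choice and is a description only. On the 5 letters 110 of the 364 judged probes met the inbred criteria of the rule, against 40 of 886 on the other letters. Of the 54 probes that met these criteria with UH301 higher but had a ratio below 0.6, 31 lay on the 5 letters too. A further 17 lay on the other letters. Of the 86 members higher in UH301, 78 lay on the 5 letters and 7 on the other letters. Within the 5 letters members occurred with every second letter and every number, from 4 of 47 judged probes with the second letter C to 13 of 41 with F. Median inbred differences of the members were alike from letter to letter, at 1.36 on J, 1.47 on K, 1.37 on N, 1.38 on O and 1.37 on R. The 8 members higher in UH301 outside these letters (LE4, LE11, MB3, ME12, P_I8, QC10, SB7 and SG1) had a median inbred difference of 1.08 and a median reciprocal difference of 1.26.

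The 86 members higher in UH301 followed one pattern over the 4 kinds of endosperm array. On arrays of 301x005 over UH301 their median was 0.05 ± 0.23, and on arrays of 005x301 over UH301 it was -1.19 ± 0.41. On arrays of 301x005 over UH005 the median was 1.40 ± 0.39, and on arrays of 005x301 over UH005 it was 0.22 ± 0.52 (each the mean of loop medians ± SD, n = 4 loops). The hybrid seeded by UH301 was thus near UH301 and well above UH005, and the hybrid seeded by UH005 well below UH301. Each member's mean lay below 0 for 005x301 over UH301 and above 0 for 301x005 over UH005, and 81 of 86 kept that side on every array with a value, in each of the 2 kinds. These values chose the members and are a description, with no test. In tissue samples a lower level in every cell and fewer cells with the transcript cannot be told apart.

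**Figure D2:**
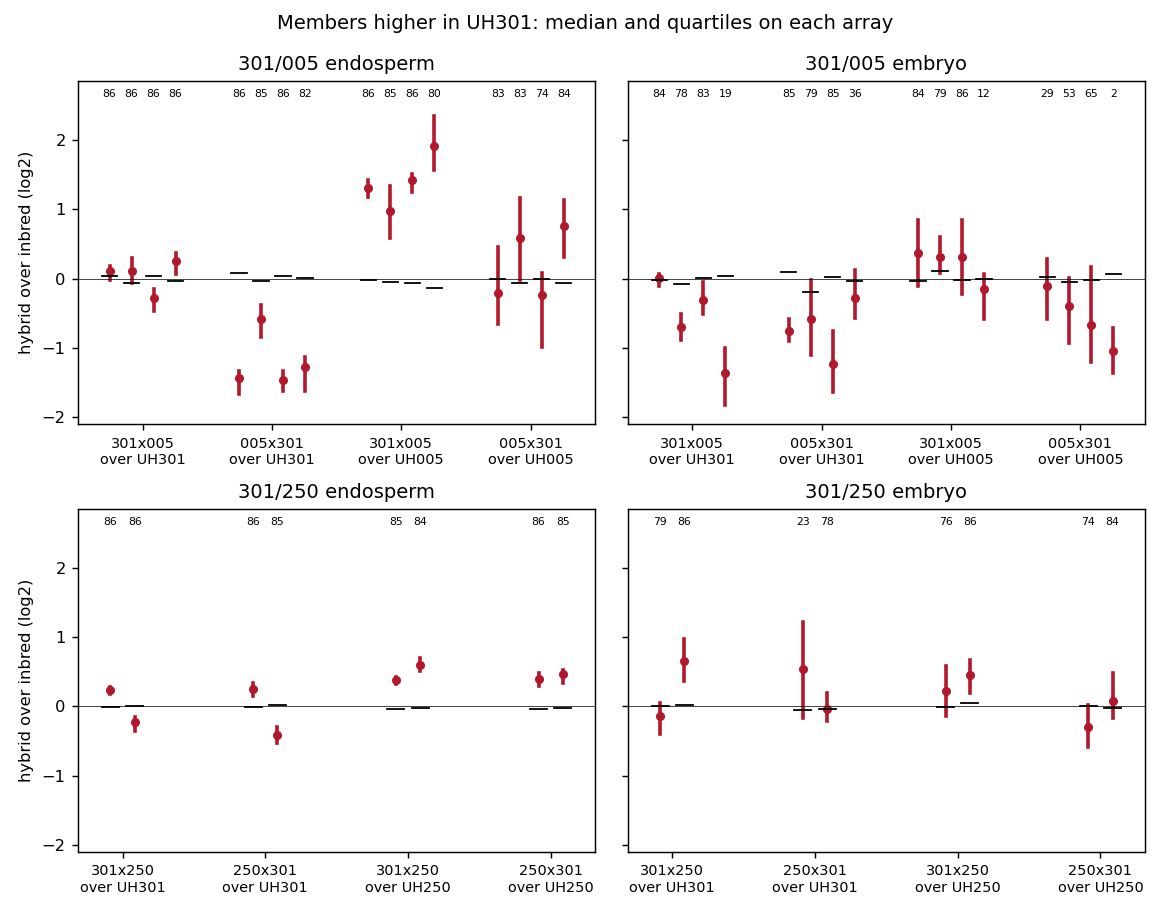
Log2 ratio of hybrid over inbred (vertical axis) for the members higher in UH301, by kind of array (horizontal axis) and loop, in the 4 combinations of cross and tissue. Points are medians and bars quartiles over the members with a value, whose number stands at the top, and black dashes are medians of all probes. In 301/005 endosperm the medians for 301x005 over UH005 lie between 0.98 and 1.91 and those for 005x301 over UH301 between -1.46 and -0.59, while in 301/250 endosperm all lie between -0.42 and 0.60.

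Over the loops, the inbred difference (UH301 minus UH005) of these 86 members had a median of 1.36, with a range of 0.85 to 2.20. Their reciprocal difference (301x005 minus 005x301) had a median of 1.19, with a range of 0.57 to 2.17, and the ratio of the reciprocal to the inbred difference had a median of 0.856. The ratio was above 1 for 30 of all 94 members. The reciprocal difference was above 0 in every loop with a value for 68 of the 86. A further 54 probes met the inbred criteria in the same direction but had a ratio below 0.6. Their median inbred difference was 1.44, close to that of the members, and their median reciprocal difference was 0.43. By array, these probes had medians of -0.19 for 301x005 over UH301, -0.76 for 005x301 over UH301, 1.12 for 301x005 over UH005 and 0.62 for 005x301 over UH005.

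**Figure D3:**
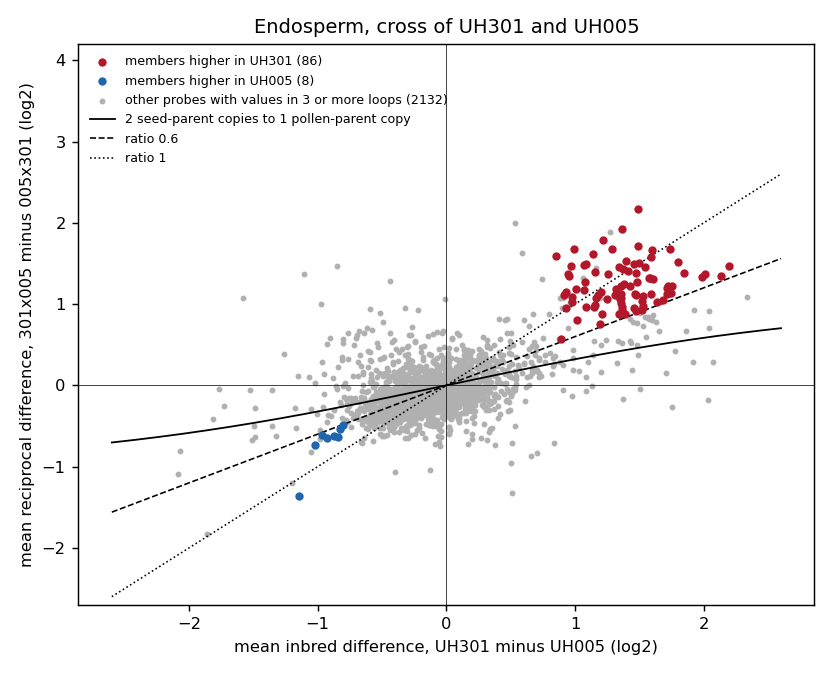
Mean reciprocal difference (vertical axis, log2) against mean inbred difference (horizontal axis, log2) of the 2226 judged endosperm probes of cross 301/005. Members higher in UH301 are red, members higher in UH005 blue and other probes grey. The dashed and dotted lines mark ratios of 0.6 and 1, and the solid curve is the reciprocal difference that genome copies alone would give.

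The size of the reciprocal difference was set against the arithmetic of genome copies. If every copy gave the level of its own inbred, on a linear scale, 2 seed-parent copies and 1 pollen-parent copy would give the 86 members a median reciprocal difference of 0.43, from 0.28 to 0.63. On that arithmetic the difference cannot pass 1, however far the inbreds differ. The measured median was 1.19, and 69 of the 86 members lay above 1. On the same arithmetic the reciprocal difference always stays below 0.6 of the inbred difference. No probe measured at those values could therefore meet the rule. The comparison was fixed by the choice, so it describes the selected probes only and is no test of the arithmetic.

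Among members with values in all 4 loops, OA7 had an inbred difference of 2.34, 2.34, 1.80 and 2.06 in replicates 1 to 4. Its reciprocal difference was 2.19, 0.67, 0.83 and 1.69, above 0 throughout but less even. For 005x301 over UH301 OA7 measured -3.17, -1.50, -1.64 and -1.57, and for 301x005 over UH005 1.36, 1.52, 0.98 and 2.18. The arrays of 301x005 over UH301 gave 0.30, -0.45, -0.76 and 0.49, on both sides of 0. Those of 005x301 over UH005 gave 0.46, 1.22, 0.21 and 0.86. For OA7, 301x005 thus lay on both sides of UH301, while 005x301 was above UH005 on all 4 arrays.

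JA5 had the largest mean inbred difference among these members, 2.20 ± 1.14 (SD, n = 4), with a reciprocal difference of 1.47 ± 0.56. Its inbred difference was 0.76, 3.43, 1.90 and 2.69 in replicates 1 to 4, so that the loops differed widely. RE5 had an inbred difference of 2.01 ± 0.56 and a reciprocal difference of 1.37 ± 0.48 (SD, n = 4 each). The ratio of JA5 was 0.668 and that of RE5 0.679, both in the lower part of the members' range. RA7 and NA9 had negative reciprocal differences in replicate 2, -0.20 and -0.39, and values of 1.11 to 2.03 in the other loops. NA2, OA5, KA7, OD9 and KH11, the rest of the 10 largest, had mean inbred differences of 1.71 to 1.85 and mean reciprocal differences of 1.14 to 1.51.

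Among members with values in all 4 loops, the 3 with the highest ratios were RB7, MB3 and OG11. All 3 had uneven values for 005x301 over UH005. RB7, with the highest ratio of 1.87, measured -2.22, 1.98, -2.67 and 0.71 on these arrays in replicates 1 to 4. Its ratios for 005x301 over UH301 were -1.26, -0.65, -1.33 and -1.12, all on 1 side. MB3, with a ratio of 1.51, showed the same alternation for 005x301 over UH005, at -1.29, 0.86, -2.75 and 1.43. OG11 had a ratio of 1.47, an inbred difference of 1.22 ± 1.05 and a reciprocal difference of 1.79 ± 0.42 (SD, n = 4 each). For 005x301 over UH005 it measured -1.99, -0.44, -0.43 and 1.23. Uneven values on these arrays were not confined to high ratios. RB1, with a low ratio of 0.613, measured -1.38, 2.31, -1.37 and 2.39 on them. The reciprocal minus the inbred difference is by construction 301x005 over UH301 minus 005x301 over UH005, so a low value on the second kind of array raises the ratio.

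That kind of array was also the one on which the members differed most from each other. Their interquartile range was 0.83 to 1.19 for 005x301 over UH005, against 0.36 to 0.82 for all probes on the same arrays. For 301x005 over UH301 it was 0.20 to 0.36, against 0.47 to 0.68 for all probes, and for 005x301 over UH301 0.28 to 0.48, against 0.57 to 0.88. For 301x005 over UH005 it was 0.25 to 0.78, against 0.51 to 0.94 for all probes. The rule used these arrays, so the ranges describe the choice.

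The values for 005x301 over UH005 also differed between the odd and the even replicates, which had opposite dye orientations. Medians of the 86 members were -0.21 and -0.24 in replicates 1 and 3, where the inbred RNA was in the Cy3 channel, and 0.58 and 0.76 in replicates 2 and 4, where the hybrid RNA was. The even replicates were above the odd ones for 70 of 86 members, against 40.0% of judged probes. The same order held for 80 of 86 members for 005x301 over UH301, against 43.6% of judged probes, and for 74 of 86 for 301x005 over UH301, against 40.8%. For 301x005 over UH005 it held for 46 of 86, against 44.4%. Before the ratios were turned to hybrid over inbred, all 6 pairs of 005x301 over UH005 arrays correlated positively across members, with r from 0.14 to 0.54 over 71 to 81 members, which share the arrays. After turning, r ran from -0.54 to 0.16. The other kinds of array were not all of this pattern. For 301x005 over UH301 all 6 pairs were above 0 before turning, with r from 0.05 to 0.64, and r after turning ran from -0.64 to 0.18. For 301x005 over UH005 all 6 were above 0 as well, with r from 0.01 to 0.35, and r after turning ran from -0.29 to 0.35. For 005x301 over UH301 only 2 of 6 pairs were above 0 before turning, with r from -0.28 to 0.75, and after turning r ran from 0.17 to 0.75.

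In the odd replicates the median reciprocal difference was 1.53, and the ratio reached 0.6 for 66 of 71 members with both loops. In the even replicates the median was 0.95, and 36 of 74 members reached 0.6. The median inbred differences were 1.32 in the odd and 1.47 in the even replicates. A constant dye effect cancels in both differences. With means balanced over the dye orientations, an alternative chosen after seeing the data, 97 probes met the rule, of which 92 were among the 94. Replicate and dye cannot be told apart with 2 loops per orientation.

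By single loop, the median inbred difference of the 86 members was 1.20, 0.99, 1.41 and 1.83 in replicates 1 to 4, and the median reciprocal difference was 1.62, 0.57, 1.42 and 1.46. Replicate 2 had the lowest median in both, and there 16 of 82 members had a reciprocal difference below 0, against 1 of 83, 1 of 74 and 0 of 78 in replicates 1, 3 and 4. To read values that took no part in the choice, members were chosen on 3 loops and read in the loop left out. The number chosen was 54, 73, 70 and 64 with replicates 1 to 4 left out. Median inbred differences of those higher in UH301 in the left-out loop were 1.26, 0.88, 1.45 and 1.87. Median reciprocal differences there were 1.30, 0.43, 1.23 and 1.26. The reciprocal difference was above 0 in 43 of 45, 47 of 63, 52 of 53 and 51 of 52 of them, against 41.9%, 46.9%, 43.9% and 39.2% of all probes. The ratio of the 2 medians was 1.03, 0.486, 0.852 and 0.674, so that in replicate 2 it lay below the 0.6 of the rule.

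Probes near the limits of the rule showed how gradual they were. Just inside the inbred limit lay S_CC891 at -0.80, S_CC363 at -0.83 and QA12 at -0.84. RA6 lay just outside it at 0.80, below the limit before rounding, with a reciprocal difference of 0.88, and S_CC367 at -0.74 and P_P22 at 0.69 came next. Just inside the ratio limit lay S_CC891 at 0.601, RB1 at 0.613 and RG6 at 0.62, and just outside lay JE5 at 0.59, NC7 at 0.58 and S_CC267 at 0.57. RB1 had reciprocal differences of 2.00, -0.55, 1.84 and 0.44, and NC7 of 0.77, 0.29, 2.10 and 0.12, so their order rested on less than the spread between loops. RH4, also among the 3 lowest ratios of members with 4 loops, had an inbred difference of 1.64 ± 0.87 and a reciprocal difference of 1.02 ± 0.66 (SD, n = 4 each).

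The 8 members higher in UH005 were BE7, IG1, IG3, QA12, S_CC71, S_CC363, S_CC891 and S_CC1037, none of them on the 5 letters. Their mean inbred differences ran from -1.14 to -0.80 and their mean reciprocal differences from -1.36 to -0.48. The reciprocal difference was below 0 in every loop with a value for 8 of 8. BE7 had inbred differences of -0.98, -1.12, -0.67 and -1.30 and reciprocal differences of -0.41, -0.77, -0.99 and -0.77 in replicates 1 to 4. IG3, the one with the largest mean, had reciprocal differences of -0.21, -2.21 and -1.66 in 3 loops, and of the 8 it alone went below the genome-copy limit of -1.

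Embryos of the same cross were not used by the rule. There 37 of the 86 members higher in UH301 had values in enough loops to be tested. Their inbred difference was above 0 for 34 of the 37, with a median of 0.57, against 52.3% of all 1892 probes tested and a median of 0.02 over all probes. The reciprocal difference was above 0 for 31 of the 37, with a median of 0.56, against 56.8% of all probes and a median of 0.04. The 54 probes with a ratio below 0.6 in endosperm, of which 31 were tested, were above 0 in the embryo inbred difference for 25, with a median of 0.81, and in the embryo reciprocal difference for 18, with a median of 0.09. Counts over members share arrays and RNA and are no test of the group.

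For single probes the embryo differences did not pass the test. In the limma fit over all probes, with Benjamini-Hochberg adjustment and a threshold of 0.05, 0 of 44 members tested were called for the embryo inbred difference, where 17 of 1892 probes were (0.899%), and 16 of the 44 (36.4%) had an unadjusted p under 0.05, against 13.1% of all probes. For the embryo reciprocal difference 0 of 44 members and 0 of 1892 probes were called (0%), with 9 members (20.5%) at an unadjusted p under 0.05, against 6.18% of all probes. RD8 had embryo inbred differences of 1.52 and 1.20 in replicates 2 and 3, a fitted 1.36 ± 0.25 (SE) with a limma adjusted p of 0.0592. KE8 had 0.66, 1.02 and 0.79 in replicates 1 to 3, a fitted 0.82 ± 0.19 (SE) with a limma adjusted p of 0.0830. The embryo reciprocal difference of RD8 was 1.41 and 0.74 in the same 2 loops, with a limma adjusted p of 0.608.

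A fit of single arrays, which also uses arrays of incomplete loops, called more members in the embryo. Without a block for the loop it takes arrays that share RNA as independent, so those calls do not rest on the loop as the unit. With the loop as a random block it called 9 of 94 members for the inbred difference, where 3.79% of 3406 probes were called, and without the block 5 of 94, where 3.02% were. KH3, JE8, LE11 and KE6 with estimates of 1.06 to 2.39, and IG1 with -1.24, were called in the fit without the block. For the reciprocal difference the block fit called RB6 alone among members, at 1.90 ± 0.40 (SE) with a limma adjusted p of 0.0271. It called 0.324% of 3399 probes. The fit without the block called 0 of 94 members and 0.0588% of 3399 probes. Of the 9 members, 8 were higher in UH301 in embryo as in endosperm and IG1 was higher in UH005 in both. These probes were picked by their values in that fit.

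Members were often without a value in the embryo, unevenly over the kinds of array. For 005x301 over UH005 only 29, 53, 65 and 2 of the 86 members higher in UH301 had a value in replicates 1 to 4. For 301x005 over UH301 the numbers were 84, 78, 83 and 19, for 005x301 over UH301 85, 79, 85 and 36, and for 301x005 over UH005 84, 79, 86 and 12. In replicate 1 this meant 33.7% of members for 005x301 over UH005, against 80.0% of judged probes, while for 301x005 over UH301 it was 97.7% of members, against 85.6%. The array of 250x301 over UH301 in replicate 1 of cross 301/250 was alike, with 26.7% of members against 71.3% of judged probes. Replicate 4 of the 301/005 embryo had few values in general, 926 to 2253 of 3585 probes. The sources used here do not say what made a value missing, so it cannot be read as a low level.

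**Figure D4:**
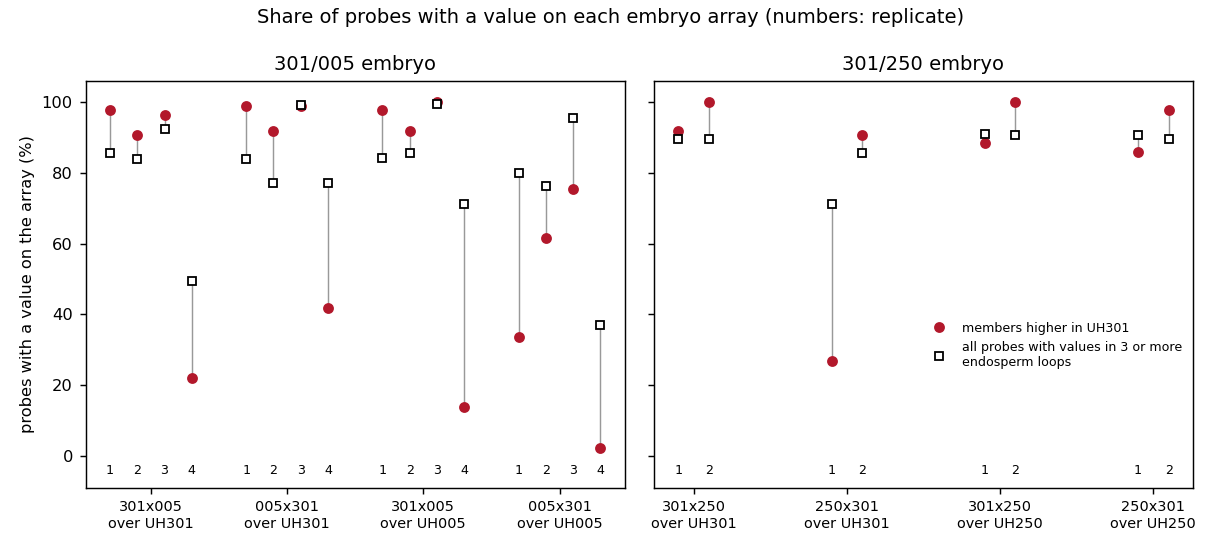
Percent of probes with a value (vertical axis) on each embryo array, by kind of array (horizontal axis) and replicate (numbers at the foot), for members higher in UH301 (red points) and for the 2226 probes judged in 301/005 endosperm (open squares). For 005x301 over UH005 members stand at 2.33% to 75.6%, below the squares in all 4 replicates.

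Tests in the embryo therefore rest on replicates 1 to 3 and on the members seen there. Loop medians of the inbred difference were 0.22 over 28 members, 0.57 over 47 and 0.66 over 62 in replicates 1 to 3. Those of the reciprocal difference were 0.50, 0.22 and 0.87, all above 0. In replicate 4 only KE12 and S_CC363 had both differences, with inbred differences of 0.12 and -0.31 and reciprocal differences of 0.61 and 0.44. The mean of loop medians was 0.48 ± 0.23 for the inbred and 0.53 ± 0.33 for the reciprocal difference (SD, n = 3 loops). Of the 10 members with the largest endosperm difference, 5 had embryo values in at least 2 loops of opposite dye with enough degrees of freedom: KA7, NA2 and NA9 had fitted embryo reciprocal differences of 0.57, 0.66 and 0.57, OA5 of 0.69 and OA7 of -0.11.

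Endosperm of the other cross, of UH301 with UH250, gave values for nearly every member. UH301 was above UH250 for 80 of the 81 members higher in UH301 that were tested, with a median inbred difference of 0.49, against 41.4% of 2177 probes and a median of -0.06 over all probes. The 2 loops differed in size, with medians of 0.14 and 0.85. The reciprocal difference, 301x250 minus 250x301, was above 0 for 66 of the 81 members, against 55.7% of all probes. Its median over the 81 was 0.06, with loop medians of -0.02 and 0.15. Of the 54 probes of lower ratio, 41 were tested in this cross, and 41 of the 41 were above 0 in the inbred difference, with a median of 0.56. In limma 0 of 88 members and 0 of 2177 probes (0%) were called for the inbred difference, with 5 members (5.68%) at an unadjusted p under 0.05, against 6.20% of all probes. For the reciprocal difference 0 of 88 members and 0 of 2177 probes (0%) were called, with 2 members (2.27%) at an unadjusted p under 0.05, against 1.33% of all probes. Neither fit of single arrays called a member for these differences. With and without the block they called 0.548% and 0.515% of 3105 probes for the inbred difference. For the reciprocal difference they called 0.0322% and 0% of 3104 probes. The inbred lines compared differ between the crosses, and the difference between the crosses in endosperm was not tested because the rule used one side of it.

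In that endosperm the members moved as a tight group. Their interquartile range was 0.10 to 0.22 on the 8 arrays, against 0.30 to 0.54 for all probes. Medians of the 86 members were 0.23 and -0.23 for 301x250 over UH301 and 0.24 and -0.42 for 250x301 over UH301 in replicates 1 and 2, so both hybrids changed side together. For 301x250 over UH250 they were 0.38 and 0.60, and for 250x301 over UH250 0.39 and 0.46, above 0 on all 4 arrays. Of the 10 largest members, OA7 had inbred differences of 0.49 and 0.87 and reciprocal differences of 0.03 and 0.27. KH11 had inbred differences of 0.91 and 1.02 and reciprocal differences of 0.57 and 0.11.

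BE7, higher in UH005 in the first cross, had the lowest p of the members for both differences in this one. Its inbred difference was -0.76 and -0.51, so UH250 was the higher line, and its reciprocal difference was -1.07 and -0.97. The fitted reciprocal difference was -1.02 ± 0.22 (SE), with an unadjusted p of 0.000947 and a limma adjusted p of 1.00 over 2177 probes. In embryos of the same cross the reciprocal difference of BE7 was above 0 in both loops, from 0.29 to 0.55. IG3 also had a negative reciprocal difference in 301/250 endosperm, -0.90 in its 1 loop, and the other 6 members higher in UH005 had means of -0.03 to 0.20.

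In embryos of cross 301/250 few members could be tested and the 2 loops differed. The inbred difference was above 0 for 9 of the 18 members higher in UH301 that were tested, with a median of -0.02, and the reciprocal difference for 9 of 18, with a median of 0.01. Loop medians of the reciprocal difference were -0.46 over 20 members and 0.49 over 77 members in replicates 1 and 2. In replicate 2 the reciprocal difference was above 0 for 64 of the 77, against 52.3% of all probes, and in replicate 1 for 7 of the 20, against 54.4%. Over all members tested, the median reciprocal difference was -0.09 without replicate 2 and 0.46 without replicate 1. In limma 0 of 23 members and 0 of 1604 probes (0%) were called for the inbred difference, with 2 members (8.70%) at an unadjusted p under 0.05, against 7.42% of all probes. For the reciprocal difference 0 of 23 members were called, where 4 of 1604 probes were (0.249%), with 3 of the 23 members at an unadjusted p under 0.05, against 17.7% of all probes. OF3 had the lowest, with reciprocal differences of 0.63 and 1.12 and a limma adjusted p of 0.118. The block fit of single arrays called S_CC71 alone among members for the inbred difference, at -3.60 ± 0.88 (SE) with a limma adjusted p of 0.0373, where 1.09% of 3129 probes were called. That probe had no complete loop there. Neither fit of single arrays called a member for the reciprocal difference, where they called 0.704% (block) and 0.384% (no block) of 3126 probes.

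**Figure D5:**
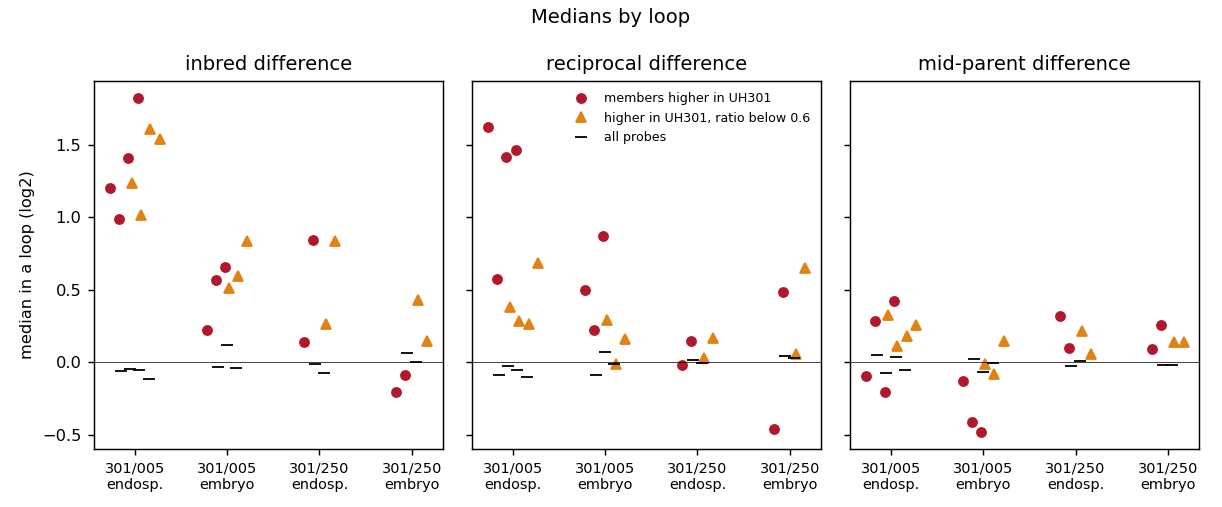
Loop medians (vertical axis, log2) of the inbred, reciprocal and mid-parent differences in the 4 combinations of cross and tissue (horizontal axis), for members higher in UH301 (red points), for probes of the same inbred criteria with a ratio below 0.6 (triangles) and for all probes (dashes), with 1 symbol per loop with 10 or more members. Reciprocal medians of the members lie between 0.57 and 1.62 in 301/005 endosperm, between 0.22 and 0.87 in 301/005 embryo and between -0.02 and 0.15 in 301/250 endosperm.

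The mid-parent difference, the mean of both hybrids minus the mean of both inbreds, uses the same arrays in a combination that the rule did not use. In 301/005 endosperm the hybrids were above the mid-parent for 57 of the 69 tested members higher in UH301, against 45.4% of all probes. Loop medians of the 86 were -0.10, 0.28, -0.20 and 0.43 in replicates 1 to 4, below 0 in the odd and above 0 in the even replicates. With a dye term in the fit, the median over the 69 tested was 0.10, against -0.02 over all probes. In limma 0 of 77 members and 0 of 2076 probes (0%) were called, with 3 of the 77 members at an unadjusted p under 0.05, against 7.66% of all probes. Neither fit of single arrays called a member here, where they called 0.337% (block) and 0.956% (no block) of 3557 probes. OH5 had the lowest p, with 0.64, 0.30, 0.00 and 0.91 and a limma adjusted p of 0.627.

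In 301/005 embryo the hybrids were below the mid-parent for 30 of 35 tested members higher in UH301, with a median of -0.33, against -0.01 over all probes. Loop medians were -0.13, -0.41 and -0.48 in replicates 1 to 3. In limma 0 of 42 members and 0 of 1752 probes (0%) were called, with 13 members (31.0%) at an unadjusted p under 0.05, against 7.36% of all probes. The fit of single arrays without a block, which takes the arrays of a loop as independent, called RE3, RE5, NF9 and NA5. Their estimates ran from -1.56 to -0.52, and 1.17% of 3410 probes were called. The fit with the block called 0 of 94 members and 0.117% of 3410 probes. In 301/250 endosperm the hybrids were above the mid-parent for 66 of 68 such members, with a median of 0.20, and 0 of 75 members and 0 of 1890 probes (0%) were called, with 0 members at an unadjusted p under 0.05, against 1.22% of all probes. In 301/250 embryo 12 of 17 were above it, with a median of 0.14, and 0 of 22 members and 0 of 1460 probes (0%) were called, with 2 (9.09%) at an unadjusted p under 0.05, against 6.44% of all probes. Neither fit of single arrays called a member in cross 301/250. With and without the block they called 0.128% and 0.256% of 3126 probes in endosperm. In embryo they called 0.126% and 0.472% of 3180 probes. The share of probes above the mid-parent was 45.3% to 48.5% of all probes in these 3 sets.

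The direct tests of differences between tissues and crosses that did not involve the rule called nothing. In limma the inbred difference of 301/250 endosperm minus embryo was called for 0 of 1483 probes and 0 of 20 members. There 1 of the members and 51 of the probes had an unadjusted p under 0.05. The reciprocal difference was likewise called for 0 of 1483 probes and 0 of 20 members. In it 1 member and 111 probes had an unadjusted p under 0.05. For embryos of cross 301/005 minus cross 301/250, 0 of 1314 probes and 0 of 12 members were called in each difference. In each, 2 members had an unadjusted p under 0.05. Of all 1314 probes, 79 did so for the inbred and 167 for the reciprocal difference.

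Members resembled each other more than other probes resembled them. Over the 24 endosperm arrays of both crosses, the correlation of each of the 86 members with the median of the members was 0.909 in the median, from 0.554 to 0.982, and above 0.9 for 48. These points share RNA within loops and took part in the choice, so the values describe the group. This measure was added after the data were seen. Of 917 other probes with values on all 24 arrays, 2 exceeded 0.9, NF5 at 0.926 and RA6 at 0.917, both on the 5 letters. NF5 had an inbred difference of 1.60 and a reciprocal difference of 0.87, a ratio of 0.542, so it met the inbred criteria and missed the ratio. OD4, KB4 and KF9, on the same letters, came next at 0.886, 0.871 and 0.855. Over the inbred and reciprocal differences of all 12 loops, 24 values that include the embryo, the probe most like the member median was again RA6, with r = 0.479 among 376 probes, followed by CH10 at 0.208.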

How the data were processed

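The values are the authors' deposited log ratios of the Cy3 and Cy5 channels, 1 for each probe on each array, taken here as log2. The labels and the file header state no log base, background correction or normalization. Signal behind a ratio was not used, so the number of arrays limits the precision. An array had values for 926 to 3430 of 3585 probes (7 control entries left out), with medians of -0.20 to 0.11. Probes with the prefix P_ had no value on 10 arrays.

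Samples were grouped from the array titles. Ratios were taken as channel 1 over channel 2 and turned to hybrid over inbred. Each loop gave an inbred, a reciprocal and a mid-parent difference per probe. A dye effect that is equal on the 4 arrays of a loop cancels in the inbred and reciprocal differences. An unequal one does not. The mid-parent fit had a dye term. All 12 loops were fitted with limma 3.58.1 in R 4.3.3, with 1 coefficient per cross and tissue, two-sided p-values and Benjamini-Hochberg adjustment over all probes tested. A probe needed 2 loops of both dye orientations and 3 residual degrees of freedom, and missing loops were left out. Figures and medians were made with Python 3.11.15, pandas 2.3.3, numpy 2.4.6 and matplotlib 3.10.9. The fit and the rule were run on simulated data. For the rule these had less spread than the measured loops and no true ratio near the limit, so that run checked its arithmetic only. Replicates of a loop share a pollination day per the labels' protocols, so the loop was the unit. The single-array fit estimated a correlation of 0.17 within loops.

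Named were the 10 largest inbred differences among members with 4 loops, probes next to each limit, the 3 highest and lowest ratios among members with 4 loops, all members higher in UH005, members of lowest p and the probes most like the members. Members and lists were chosen with earlier results of these data known. Alternatives are in the closing section. Probe sequences and gene names were not used here.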

Additional observations from a re-analysis of the deposited data

Results flagged for a closer look

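Among 61 groups of 4 values checked, 6 held a value far from the other 3, where chance gives about 5% of groups. Of these, 5 were shares of the 86 members higher in UH301 that had a value: 93.0% for 301x005 over UH005 in replicate 4 of the 301/005 endosperm, 86.0% for 005x301 over UH005 in replicate 3 there, and in replicate 4 of the 301/005 embryo 22.1% for 301x005 over UH301, 41.9% for 005x301 over UH301 and 14.0% for 301x005 over UH005. The other was the median of these members for 301x005 over UH005 in replicate 4 of the embryo, -0.15 over 12 members, against 0.31 to 0.36 in the other replicates.

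Some named members had differences on opposite sides of 0 in every loop of 2 sets. Where 301/005 endosperm was one of the sets, the rule had used its values. The sign of the inbred difference and of the mean reciprocal difference there was set by the choice, and the difference between the sets was not tested. The inbred difference of S_CC891, IG1 and S_CC71 was above 0 in 301/250 endosperm, at means of 0.38, 0.33 and 0.40, and below 0 in 301/005 endosperm, where a different inbred was set against UH301. The reciprocal difference of S_CC1037 had a mean of 0.15 in 301/250 endosperm, against negative values in 301/005 endosperm. QA12 had a mean reciprocal difference of 0.25 in 301/005 embryo, and MB3 a mean inbred difference of -0.72 there, each opposite to 301/005 endosperm. BE7 had a mean reciprocal difference of 0.42 in 301/250 embryo, opposite to 301/250 endosperm. Direct tests between tissues were run for cross 301/250 only and called no member.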

How the results depend on the processing

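The rule gave 53 members with a minimum ratio of 0.8, all among the 94, and 54 (without replicate 1) to 73 with 1 replicate left out, which then asks for values in all 3 remaining loops. Limits of 1.0 or 0.6 for the inbred difference, a ratio of 0.4, all 4 loops, centred or scaled arrays gave 64 to 126. Means balanced over dye orientations, chosen after seeing the data, gave 97, of which 92 were members. Read in the loop left out, median inbred differences ran from 0.88 to 1.87 and reciprocal ones from 0.43 to 1.30.

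Calls outside the rule stayed at 0 members when arrays were centred or scaled or loops were given their own spread. The same held when loops of cross 301/005 were left out in turn or probes were restricted to complete ones. In the 301/005 embryo these last settings tested as few as 2 members, so a call was hardly possible there. Leaving out a loop of cross 301/250 leaves 1 loop, so calls were not read there. Single arrays with the replicate block called 9, 1 and 1 members for the 301/005 embryo inbred, 301/005 embryo reciprocal and 301/250 embryo inbred differences. Without the block, with the arrays of a loop taken as independent, they called 5 for the first and 4 for the 301/005 embryo mid-parent difference.

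Medians over all tested members that moved by more than the spread between loops were the following. The 301/005 embryo inbred median of 0.46 became -0.078 over 2 complete probes. With 1 replicate left out it ran from -0.054 to 0.46, and without replicate 2 only 2 members, KE12 and S_CC363, were tested. The 301/250 embryo inbred median of -0.05 became -0.071 centred, -0.084 scaled, -0.049 for members with an inbred difference of at least 1.0, -0.25 for those with a ratio of at least 0.8, -0.018 for those with 4 loops and 0.011 on the 5 letters, and ran from -0.097 to -0.069 with a replicate left out. The 301/250 endosperm mid-parent median ran from -0.053 to 0.37. The other 187 of 210 values stayed within these limits. Replicate 2 of the endosperm and the embryo's missing values limit these results.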
